A study of Homo sapiens with 3 samples.

Results

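CpG-sparse stretches of the Hep3B genome that carried little methylation were examined in parental cells and in 2 SOX4-/- lines of the same cells. The genome was divided into fixed windows of 1 kb from the first base of each autosome, and a CpG entered when it had at least 10 reads, strands summed, in all 3 libraries. A low CpG-sparse window held 5 to 10 such CpGs, had a mean methylation level below 20% (over its CpGs, then over the 3 libraries), and had no window of 20 or more such CpGs within 2 kb, which kept out the edges of CpG islands. This gave 10842 windows with 70588 CpGs, out of 111495 autosomal windows with at least 5 CpGs. They made up 19.3% of the 56156 windows that met the rule on CpG number and distance. Another 23347 of these sparse windows lay between 20% and 80%, and 21967 at or above 80%. The windows were chosen by their measured levels in all 3 libraries, so their low level is a description and was not tested.

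Hep3B is a human hepatocellular carcinoma line, and SOX4 belongs to the SOX transcription factors, which bind DNA through an HMG box. The groups were parental Hep3B (1 library of genomic DNA) and Hep3B SOX4-/- lines made with CRISPR/Cas9 (1 library each of line 1 and line 2, numbered as in the labels). The study's methods have the SOX4-/- cells cultured with puromycin, an antibiotic used for selection, and state none for parental cells. The knockout, the antibiotic and the derivation of each line therefore cannot be told apart in any comparison with parental cells. DNA was sheared, captured with the EPIC probe set, converted with bisulfite, amplified and sequenced. Bisulfite converts unmethylated cytosine so that it is read as T, and the methylation level of a CpG is the percent of its reads that keep a C. Over the low CpG-sparse windows, the median depth per CpG was 34 reads in parental cells, 31 in line 1 and 42 in line 2. Positions are those of the files, in GRCh37 (hg19) per the submitters' processing notes.

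In mammalian genomes most CpGs are methylated, and CpG islands, dense in CpG and often at promoters, are the best known exception. Low methylation in CpG-poor DNA is known at enhancers and at promoters of genes used by a single tissue, where bound transcription factors go with local loss of the mark. It is also known in partially methylated domains, long stretches that lose methylation gradually in dividing and cancer cells. The liver makes albumin, most clotting factors and many complement proteins, and several of their promoters are poor in CpG.

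Promoter sequences show what such windows look like. RefSeq sequences (GRCh38.p14) of 250 bases before and 50 bases after a start site were placed in the files by the spacing of their CpGs, with no conversion of coordinates. Of 25417 autosomal sequences with at least 4 CpGs, 15378 were placed at a single position and in the order of the table, for 12830 genes; autosomes that the table did not hold were not searched. The first 5 sequences below belong to lists of hepatocyte, clotting and complement genes, called the liver lists. The last 3 belong to immune or keratin families, and each of these genes had its start site in a low CpG-sparse window. CpGs are in capitals, and the rest is in lower case. ALB encodes serum albumin, FGG the gamma chain of fibrinogen, TFPI an inhibitor of the tissue factor pathway, F5 coagulation factor V and C4BPA the alpha chain of the complement regulator C4b-binding protein. GIMAP7 encodes a GTPase of lymphocytes, LILRA2 a receptor of myeloid cells and KRTAP10-2 a keratin-associated protein of hair.
ALB: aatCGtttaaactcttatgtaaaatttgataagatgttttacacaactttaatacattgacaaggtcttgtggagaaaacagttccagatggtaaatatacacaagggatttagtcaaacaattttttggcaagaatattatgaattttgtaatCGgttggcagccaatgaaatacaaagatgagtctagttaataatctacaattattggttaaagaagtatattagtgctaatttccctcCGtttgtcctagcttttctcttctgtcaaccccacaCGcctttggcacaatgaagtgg
FGG: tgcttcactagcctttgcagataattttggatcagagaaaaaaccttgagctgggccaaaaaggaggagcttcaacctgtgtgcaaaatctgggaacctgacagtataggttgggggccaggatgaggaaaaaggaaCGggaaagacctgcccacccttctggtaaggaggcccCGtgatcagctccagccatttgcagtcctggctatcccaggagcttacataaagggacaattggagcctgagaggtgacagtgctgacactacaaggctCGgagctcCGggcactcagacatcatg
TFPI: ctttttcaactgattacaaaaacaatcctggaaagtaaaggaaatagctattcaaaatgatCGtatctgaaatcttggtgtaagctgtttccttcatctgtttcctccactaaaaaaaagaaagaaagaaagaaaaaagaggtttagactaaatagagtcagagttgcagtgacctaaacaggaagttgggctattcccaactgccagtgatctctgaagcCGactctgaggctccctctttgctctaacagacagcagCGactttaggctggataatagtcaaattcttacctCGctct
F5: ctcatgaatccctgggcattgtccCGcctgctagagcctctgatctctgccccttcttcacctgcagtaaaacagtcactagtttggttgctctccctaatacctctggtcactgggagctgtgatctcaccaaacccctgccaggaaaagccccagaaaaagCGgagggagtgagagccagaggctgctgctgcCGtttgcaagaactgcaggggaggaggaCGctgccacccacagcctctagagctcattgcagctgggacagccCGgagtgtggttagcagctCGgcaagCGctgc
C4BPA: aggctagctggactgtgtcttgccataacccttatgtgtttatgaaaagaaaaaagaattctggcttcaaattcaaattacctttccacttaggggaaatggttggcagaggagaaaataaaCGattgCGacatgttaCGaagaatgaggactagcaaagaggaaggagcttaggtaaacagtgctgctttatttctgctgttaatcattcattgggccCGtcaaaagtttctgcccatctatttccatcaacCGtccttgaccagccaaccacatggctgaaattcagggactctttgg
GIMAP7: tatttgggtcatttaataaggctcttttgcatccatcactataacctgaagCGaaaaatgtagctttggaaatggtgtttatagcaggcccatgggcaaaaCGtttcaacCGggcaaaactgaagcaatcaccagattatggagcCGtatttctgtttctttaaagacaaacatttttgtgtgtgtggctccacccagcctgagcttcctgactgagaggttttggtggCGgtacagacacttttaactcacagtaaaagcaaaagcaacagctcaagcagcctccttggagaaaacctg
LILRA2: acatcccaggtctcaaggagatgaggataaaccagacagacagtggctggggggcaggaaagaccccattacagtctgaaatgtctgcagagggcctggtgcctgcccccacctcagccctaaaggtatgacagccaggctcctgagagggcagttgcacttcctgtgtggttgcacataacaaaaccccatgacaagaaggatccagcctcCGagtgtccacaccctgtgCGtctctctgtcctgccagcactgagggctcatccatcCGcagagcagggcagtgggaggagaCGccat
KRTAP10-2: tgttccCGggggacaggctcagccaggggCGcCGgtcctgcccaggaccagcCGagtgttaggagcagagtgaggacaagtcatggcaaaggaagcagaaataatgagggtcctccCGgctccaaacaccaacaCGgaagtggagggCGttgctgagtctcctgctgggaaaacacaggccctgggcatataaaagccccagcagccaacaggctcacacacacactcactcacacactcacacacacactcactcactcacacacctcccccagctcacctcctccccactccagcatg
The ALB sequence holds 4 CpGs in 300 bases and has a GC content of 33.3%, and the FGG and TFPI sequences hold 4 CpGs each. Over the 485 distinct sequences placed in low CpG-sparse windows the median was 8 CpGs, against 22 over all 15269 distinct sequences placed. Their median GC content was 56.7%, against 62.7% over all and 52.0% in sparse windows at or above 20%. Counting every CpG with a read in any library, 276 of the sequences lay in low windows that were still sparse. Their medians were 6 CpGs and a GC content of 50.7%, and the median in sparse windows at or above 20% was also 6 CpGs. The ALB start site lay at base 4 of its window, so 3 of the 4 CpGs printed fell into the preceding window. Over the 4 printed CpGs the ALB level was 0.44% in parental cells, 0.37% in line 1 and 0.00% in line 2.

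Short motifs were counted in these 300 bases on both strands. The letters GTTAAT, found in the recognition sequence of the liver factor HNF1, occurred in 4 of 11 sequences of the hepatocyte, clotting and complement genes in low CpG-sparse windows (ALB, C4BPA, F2 and SERPINA10). They occurred in 6.60% of all sequences placed in low CpG-sparse windows, in 9.53% of the 1070 sequences in sparse windows at or above 20%, and in 4.41% of all sequences placed. The forkhead letters TGTTTAC were found in 2 of the 11 (C4BPA and PROS1), in 3.71% of sequences in low CpG-sparse windows, in 4.11% of those in sparse windows at or above 20% and in 2.70% of all. The SOX letters AACAATG were in none of the 11 and AACAAAG in 1 (MASP1), against 2.04% and 3.77% of all sequences. In low CpG-sparse windows they were in 1.44% and 5.57%, and in sparse windows at or above 20% in 3.64% and 6.92%. The letters of a GC box, GGGCGG, occurred in 35.3% of sequences in low CpG-sparse windows, in 15.6% where the window was sparse by every CpG seen too, in 18.6% in sparse windows at or above 20% and in 59.2% of all. The letters TATAAA were in none of the 11 and in 4 of 10 sequences counted for the other listed genes (GIMAP7, KRTAP10-2, KRTAP12-2 and LCE2B). They were in 10.3% of sequences in low CpG-sparse windows, in 14.4% in sparse windows at or above 20% and in 6.86% of all. The 10 included SERPINA6, which is counted with the liver lists further on. They leave out a listed gene with a low window, so they are not the 10 windows of other families given there. SERPINA6 alone of them held GTTAAT and TGTTTAC (1 of 10 each). In the 276 sequences where the window was sparse by every CpG seen too, the shares were 9.06% for GTTAAT, 4.35% for TGTTTAC and 13.8% for TATAAA. In the same sequences AACAATG stood at 2.17% and AACAAAG at 6.16%. These counts describe letters in a fixed stretch and say nothing of binding.

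Sparse windows were most frequent near 0% and near 100%, and no gap in the levels marked the limit of 20%. The mean level lay below 5% in 4400 windows (40.6%), between 5% and 10% in 2378 (21.9%) and between 10% and 20% in 4064 (37.5%). No methylated read was seen in any library in 296 windows. In the parental library the windows had a mean of 9.99%, a median of 8.62% and an interquartile range of 2.47% to 16.1%. Line 1 had a mean of 6.07% and line 2 of 7.96%, which gave 7.01% ± 1.34 for the knockout lines (SD, n = 2). All 3 libraries lay below 20% in 8926 of the 10842 windows, so the remainder entered through the mean with at least 1 library above the limit. The windows nearest the limit on the inside were chr19:51152001-51153000 (parental 40.2%, line 1 6.84%, line 2 13.01%), chr20:60425001-60426000 (41.5%, 8.44%, 10.1%) and chr11:62744001-62745000 (21.8%, 17.4%, 20.7%). Nearest on the outside, in the same order of libraries, were chr3:127610001-127611000 (27.8%, 9.98%, 22.2%), chr20:31575001-31576000 (22.7%, 11.1%, 26.2%) and chr11:119872001-119873000 (27.0%, 10.1%, 22.9%). The limit therefore cut through windows of like levels.

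**Figure D1:**
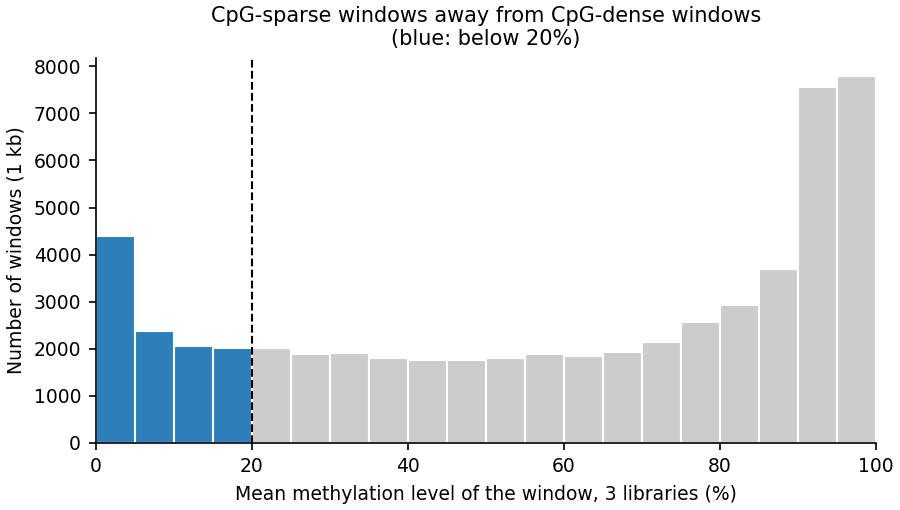
Number of CpG-sparse 1 kb windows away from CpG-dense windows (y axis) by mean methylation level of the 3 libraries in steps of 5 percentage points (x axis, percent); blue bars are the 10842 windows below 20%, grey bars the other sparse windows. The lowest step, below 5%, holds 4400 windows.

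Single CpGs within a window often differed. The range from the lowest to the highest CpG of a window (mean of the libraries) had a median of 19.3 percentage points, with quartiles of 6.27 and 36.0 points. Every CpG lay below 20% in 5301 windows (48.9%), while 1365 windows (12.6%) held a CpG at or above 50%. In the parental library 43.2% of the CpGs had no methylated read, in line 1 58.9% and in line 2 43.5%. Line 2 was sequenced more deeply than the others, and a CpG with more reads is less often at 0, so these shares are not at equal depth.

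CpGs too thinly covered for the rule were also low in these windows. The windows held 21259 further CpGs with under 10 reads in at least 1 library. Their level, over pooled reads, was 12.7% in parental cells, 10.2% in line 1 and 11.2% in line 2. The same kind of CpG stood at 55.5%, 46.2% and 50.8% in sparse windows of 20% to 80%, and at 89.8%, 87.5% and 88.8% in sparse windows at or above 80%. These CpGs lie beside the ones that chose the windows and can share reads with them, so their levels are a description and not independent of the choice. In CpG-dense windows of low level (16509 windows with 20 or more CpGs) these CpGs stood at 5.07%, 4.94% and 4.87%.

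The label of sparse held for most windows but not for all. Counting every CpG with a read in any library, 1356 windows (12.5%) held more than 10 CpGs and 389 held 20 or more. In 881 windows, the 389 included, the window itself or another within 2 kb held 20 or more CpGs seen. The remaining 9147 windows (84.4%) were sparse by this count too, and their means were 10.4% in parental cells, 6.23% in line 1 and 8.22% in line 2, against 8.01%, 5.18% and 6.55% in the others. Depth was extreme in few: 17 windows had over 500 reads per CpG in the parental library, the deepest at chr11:10531001-10532000 with a median of 5143 reads and levels of 0.72%, 0.88% and 0.79%. Without these 17 the means were 9.99%, 6.06% and 7.95%.

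How far the low stretches reach could be followed for few of them. Only 2247 windows (20.7%) had an adjacent window with at least 5 CpGs, and in 832 of these (37.0%) an adjacent window was itself low and sparse. These formed 391 runs of 2, 14 runs of 3 and 2 runs of 4. The first run of 4, chr19:55084001-55088000, holds the start site of LILRA2 in its second window and lies in the cluster of leukocyte immunoglobulin-like receptors. Its windows had parental levels of 1.97%, 5.60%, 11.3% and 2.84%, line 1 levels of 0.92%, 2.26%, 3.02% and 2.49%, and line 2 levels of 2.89%, 1.78%, 4.49% and 1.498%. The other, chr20:57738001-57742000, had parental levels of 1.67%, 1.64%, 11.9% and 16.3%. A run of 3 at chr1:226848001-226851000 was less even, with 17.1%, 2.24% and 25.7% in the parental library and 0.80%, 1.21% and 8.99% in line 1.

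Flanking windows, 2 to 5 windows away with at least 5 CpGs, were available for 4879 low CpG-sparse windows. The flanks had a mean of 40.3% in parental cells, 33.5% in line 1 and 36.5% in line 2, against 10.2%, 6.40% and 8.21% in the windows themselves. The gap was 30.1 points in parental cells, 27.1 in line 1 and 28.3 in line 2. The rule held the windows themselves low, so the gap is a description and was not tested. In the parental library the flank stood below 20% for 28.2% of these windows and at or above 50% for 33.0%. The deepest dips among the 144 windows with at least 2 flanking windows on each side, ranked by this very gap, were chr16:30996001-30997000 (0.00% against a flank of 94.6% in parental cells) and chr7:6699001-6700000 (3.39% against 93.5%). At chr6:31745001-31746000, which holds the start site of VWA7, the window stood at 0.85% in parental cells, 2.69% in line 1 and 0.65% in line 2, and its parental flank at 87.4%.

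Over a longer reach the CpGs compared around most of the windows had a mean level below 50% in parental cells. The surroundings, from 2 kb to 50 kb on each side, could be measured for 9749 windows at a median of 119 CpGs. Their median level was 34.7% in parental cells, 27.9% in line 1 and 30.8% in line 2. It was 41.3% in the parental library around sparse windows of 20% to 80%, 54.0% around sparse windows at or above 80% and 46.2% around CpG-dense windows of low level. The order of these classes was the same in line 1 (34.6%, 50.8% and 42.4%) and in line 2 (37.9%, 52.5% and 44.3%), and the surroundings of the low sparse windows were the lowest in 3 of 3 libraries. Sparse windows of each class share stretches of the genome, so these medians carry no p. The surroundings take in every CpG compared there, those of CpG-dense windows of low level too. Their level therefore also depends on which CpGs the probes captured.

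Both kinds of setting were present. The parental surroundings stood below 50% for 7555 windows (77.5%) and at or above 50% for 2194 (22.5%). In the first setting the level climbed from 10.4% within 500 bp of the centre to 33.7% at 1 kb to 1.5 kb and stayed between 31.1% and 35.3% out to 50 kb. In the second it climbed from 8.59% to 44.4% at 1 kb to 1.5 kb and 60.2% at 2 kb to 3 kb, and then stayed between 59.5% and 64.4%. Windows below 5% made up 47.2% of those in methylated surroundings and 37.9% of those in low surroundings. Line 1 and line 2 lay below the parental library at every distance in both settings.

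**Figure D2:**
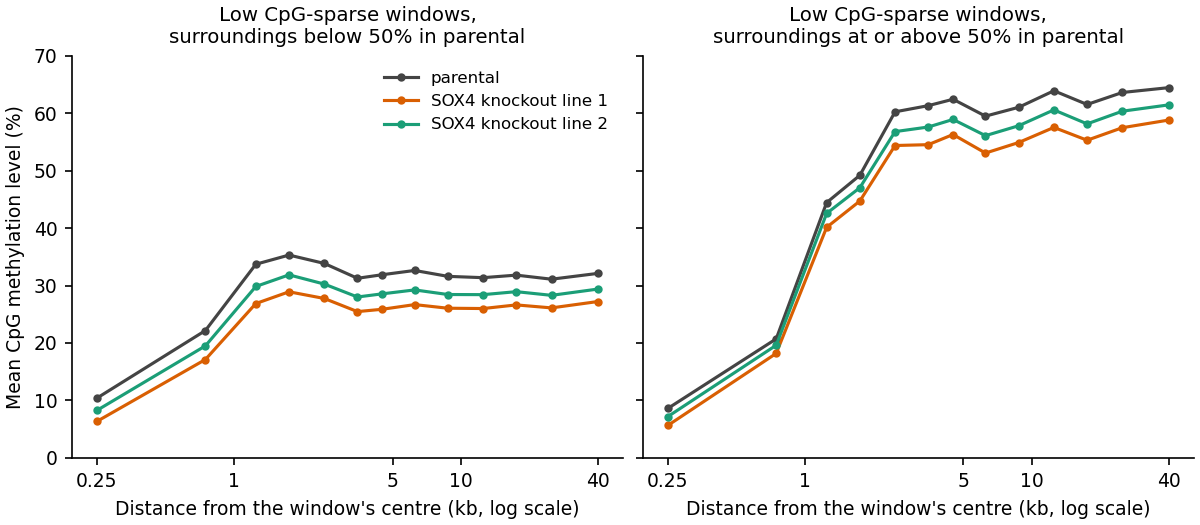
Mean CpG methylation level (y axis, percent) by distance from the centre of the window (x axis, kb, log scale), for windows in surroundings below 50% (left, 7555 windows) and at or above 50% (right, 2194 windows) in the parental library; points are distance steps, and colours are the 3 libraries. Each curve climbs within about 2 kb and then runs level, near 31% to 35% on the left and 59% to 64% on the right in parental cells.

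Chromosomes contributed unequally. On chromosome 20, 696 of 2242 sparse windows were low (31.0%), the highest share of the 22 autosomes, and on chromosome 6 499 of 3397 (14.7%), the lowest. Chromosome 11 came next after chromosome 20, with 607 of 2759. The parental mean of the low windows was 10.7% on chromosome 20 and 9.75% on chromosome 6, so the share differed more than the level did. The number of copies of each chromosome in these lines was not tested.

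Start sites of genes were a small part of the low CpG-sparse windows. A placed start site lay in 447 of the 10339 windows on the chromosomes searched (4.32%), for 473 genes, of which 322 code for protein. The share was 2.74% in sparse windows of 20% to 80%, 1.87% in sparse windows at or above 80% and 42.6% in CpG-dense windows of low level. By every CpG seen, the shares in the 3 sparse classes were 3.02%, 2.33% and 1.68%, from low to high level. The windows with a start site had a mean of 6.99% in parental cells, 4.30% in line 1 and 5.85% in line 2, and those without one 10.1%, 6.14% and 8.05%. The nearest placed start site was a median of 66767 bp away. Genes with fewer than 4 CpGs in the 300 bases could not be placed, so these shares are too low by an unknown amount.

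Most clotting genes that could be compared had their start site in a low CpG-sparse window. The start sites of 12 of 24 clotting genes were placed, 11 of them in windows that could be compared, and 8 of these 11 lay in low CpG-sparse windows: F2, F5, F7, FGG, PROS1, SERPINA10, SERPINA5 and TFPI. Over all genes the count was 473 of 11836 (3.996%). Among start sites in sparse windows away from dense ones it was 8 of 9 for clotting genes and 473 of 1468 (32.2%) for all genes. The lists were chosen with results of these data known, so the counts are a description. Counting every CpG seen left 5 of the 8, since the windows of F7, PROS1 and SERPINA5 held more CpGs or lay near a dense window, and placing sequences by at least 6 CpGs also left 5.

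The clotting windows were low in all 3 libraries. The window of F7, which encodes the factor VII that starts the extrinsic pathway, had 1.59% in parental cells, 0.48% in line 1 and 0.00% in line 2. In line 2 0 of 916 reads were methylated, which allows a level of up to 0.328%. Only 3 of the 6 promoter CpGs of F7 lay in this window. All 6 stood at 1.06% (5 of 501 reads), 1.00% (5 of 512) and 0.94% (8 of 817). TFPI, which holds the extrinsic pathway in check, had 1.87%, 0.30% and 0.14%. F2, which encodes prothrombin, had 5.13% in parental cells, 8.54% in line 1 and 9.02% in line 2. F5 had 5.49%, 6.03% and 5.47%, and FGG 3.91%, 6.24% and 7.46%. Among the regulators of clotting, PROS1 (protein S) had 1.91%, 0.86% and 6.70%, SERPINA10 (the protein Z-dependent inhibitor) 2.75%, 0.53% and 0.92%, and SERPINA5 (protein C inhibitor) 3.60%, 11.98% and 6.27%. The 4 promoter CpGs of SERPINA5 that were compared stood lower, at 0.00%, 1.32% and 4.35%. Line 1 was above parental in 4 of the 8 windows and line 2 in 4 of the 8. A single CpG of these windows, in SERPINA5, passed the CpG test described further on, as higher in line 1.

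The clotting genes that fell outside were not all methylated. KLKB1, which encodes plasma prekallikrein, had 58.0% in parental cells, 31.7% in line 1 and 38.9% in line 2. The start-site windows of F10 and PROZ each held 11 CpGs compared, just above the range, and PROZ stood at 14.4%, 13.8% and 18.4%.

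In the hepatocyte list 5 of 14 genes were placed, 4 could be compared and ALB alone lay in a low CpG-sparse window, at 0.79% in the parental library (3 of 358 reads), 1.20% in line 1 (4 of 324) and 2.47% in line 2 (12 of 481). FOXA1, a forkhead factor of liver, and TF, which encodes transferrin, lay in CpG-dense windows of low level. SERPINA1, the gene of alpha-1-antitrypsin, had 2 placed start sites. The window chr14:94856001-94857000 was sparse and stood at 66.8%, 66.9% and 69.6%. The other start site lay in chr14:94854001-94855000, which held under 5 CpGs compared, and its 5 promoter CpGs stood at 1.43% (1 of 88 reads), 5.93% (4 of 64) and 0.00% (0 of 130). Of the complement list 5 of 22 genes were placed and 4 compared, and 2 lay in low CpG-sparse windows. The others were methylated. C2 lay in a CpG-dense window at 93.7% in parental cells, 92.8% in line 1 and 91.6% in line 2. C1R lay in a sparse window at 51.1%, 44.3% and 44.3%. The window of MASP2 held under 5 CpGs compared, and its 3 promoter CpGs stood at 74.4%, 59.0% and 71.1%. C4BPA had 8.95% in parental cells, 15.5% in line 1 and 16.7% in line 2 as a mean over 6 CpGs. Its 5 CpGs in the printed promoter stood at 2.89%, 3.55% and 5.46%, so the remaining CpG, with few reads, set much of the window mean and of its differences. Over the window 19 of 336, 24 of 415 and 41 of 512 reads were methylated. MASP1, a protease of the lectin pathway, had 4.23%, 1.12% and 0.45%. SERPINA6, the corticosteroid-binding globulin of plasma, had 0.00%, 2.20% and 0.00% (0 of 259 parental reads, which allows up to 1.16%). It came from a further list, the SERPINA genes, with 6 of 9 genes placed and 5 compared. In low CpG-sparse windows lay SERPINA6, SERPINA5 and SERPINA10, and the list also holds SERPINA1. SERPINA4 lay in a sparse window at 76.4%, 73.2% and 74.8%. The window of SERPINA12 held under 5 CpGs compared, and its 4 promoter CpGs stood at 76.5%, 72.6% and 77.6%.

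Families that liver cells are not known to use were also present. GIMAP7 and GIMAP1 were 2 of 4 GIMAP genes compared, LILRA2, SIGLEC8 and SIGLEC16 were 3 of 9 genes of the LILR and SIGLEC families, and LCE1F, LCE2B, KRTAP10-2 and KRTAP12-2 were 4 of 14 genes of the keratin-associated and late cornified envelope families. OR51S1 was 1 of 6 olfactory receptor genes compared. Among start sites in sparse windows the counts were 2 of 2 for GIMAP, 3 of 5 for LILR and SIGLEC, 4 of 10 for the keratin-associated and late cornified envelope families and 1 of 3 for olfactory receptors, against 32.2% for all genes. GIMAP7 had 21.9% in parental cells, 0.25% in line 1 and 10.2% in line 2, and GIMAP1 11.2%, 1.68% and 10.2%. KRTAP10-2 had 17.6%, 1.16% and 18.9%, so only line 1 was apart, while LCE1F had 6.34%, 0.35% and 0.48%. These genes lie in clusters of related copies, and reads of near-identical copies may have been placed in either, which was not tested.

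Surroundings varied within each list. Around the clotting windows the parental surroundings had a median of 66.1%, with 82.9% at F7, 80.8% at TFPI and 74.3% at F5, 40.003% at FGG and 21.97% at PROS1 as the lowest. They stood at 79.4% around C4BPA, 70.1% around MASP1 and 64.5% around ALB. Around the GIMAP windows the median was 24.9%, around the LILR and SIGLEC windows 25.02% and around the keratin-associated and late cornified envelope windows 27.2%, with 47.8% at SIGLEC16 and 37.5% at KRTAP10-2, so values of the liver and the other lists overlap. OR51S1 had no measured surroundings. Over all 447 windows with a start site it was 39.4%. Line 1 was below parental in all 10 windows of these other families, and in 5 of the 12 windows of the liver lists with SERPINA6. Over all low CpG-sparse windows it was below in 71.1%, and it was above parental in 118 of the 447 windows with a start site.

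**Figure D3:**
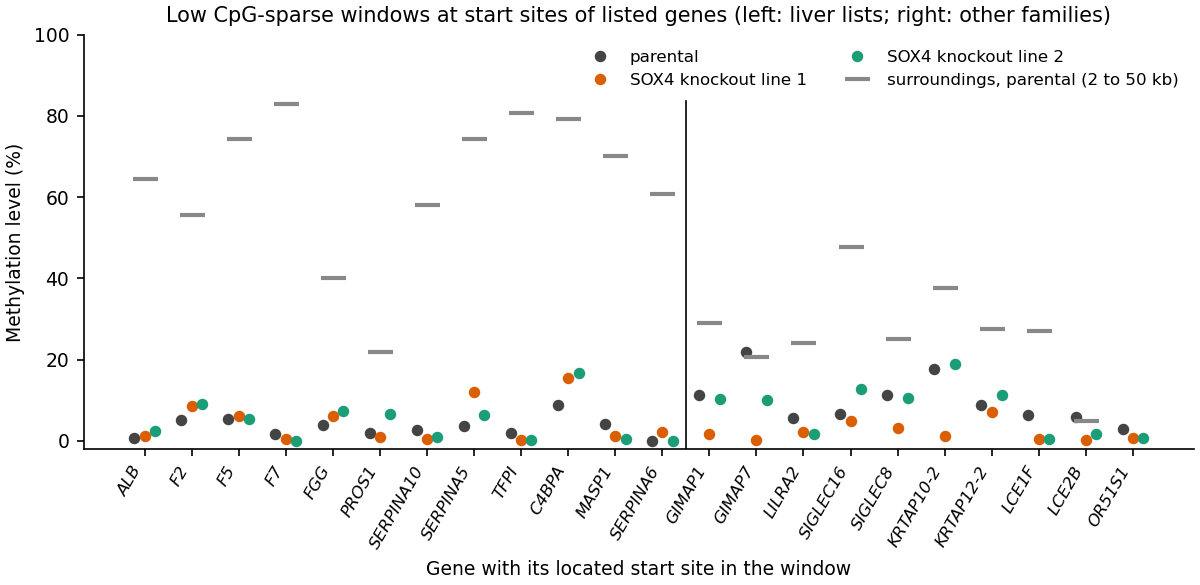
Methylation level (y axis, percent) of low CpG-sparse windows that hold the start site of a listed gene (x axis), 1 point per library; grey dashes are the parental surroundings, 2 kb to 50 kb away, where measured. Genes of the liver lists with SERPINA6 (left of the line) lie far below their surroundings except PROS1, whose surroundings stood at 21.97%. GIMAP7 and LCE2B lie slightly above their surroundings in the parental library.

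Knockout lines were then compared with the parental library over all 10842 windows. Line 1 differed from parental by -3.93 percentage points on average and line 2 by -2.04 points, and line 1 differed from line 2 by -1.89 points, close to the difference of line 2 from parental. Line 1 was lower in 7706 windows, higher in 2624 and equal in 512. Line 2 was lower in 6946, higher in 3451 and equal in 445. The exact permutation test of 1 library against 2 cannot give a p under 0.333, so the gap between parental cells and the mean of the knockout lines, -2.98 points, could not pass a threshold of 0.05 in this design. Both comparisons share the parental library and are not independent.

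Set against their own level the low sparse windows held a smaller part of the parental level in the knockout lines than the other classes. Line 1 held 60.7% of the parental level and line 2 79.6%. In sparse windows of 20% to 80% line 1 held 80.5% and line 2 90.0%, in CpG-dense windows of low level 82.5% and 89.2%, and in sparse windows at or above 80% 98.3% and 99.1%. In points the order differed: sparse windows of 20% to 80% differed by -11.1 points in line 1 and -5.66 in line 2. These ratios depend on the rule, since a window above 20% in parental cells enters the low class only if the mean of the knockout lines is lower. With all 3 libraries held below 20%, the mean was 7.38% in the parental library and 6.16% in line 2, and line 1 differed from parental by -2.55 points.

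In points the differences were larger in windows of higher level, and as a part of the parental level they were not. Among windows with measured surroundings, those below 5% differed by -1.03 points in line 1 and -0.50 in line 2, and those of 10% to 20% by -6.51 and -3.45 points. Line 1 held 56.8% of the parental level in the windows below 5% and 64.5% in those of 10% to 20%, and line 2 held 79.2% and 81.2%. In methylated surroundings the differences were -3.04 and -1.47 points, and in low surroundings -4.09 and -2.16 points. The surroundings themselves differed by -6.79 and -3.54 points in the first setting and by -5.92 and -3.31 points in the second. By chromosome, line 1 differed by -3.36 to -4.54 points and line 2 by -1.56 to -2.63 points, and each line was below parental on 22 of 22 autosomes.

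**Figure D4:**
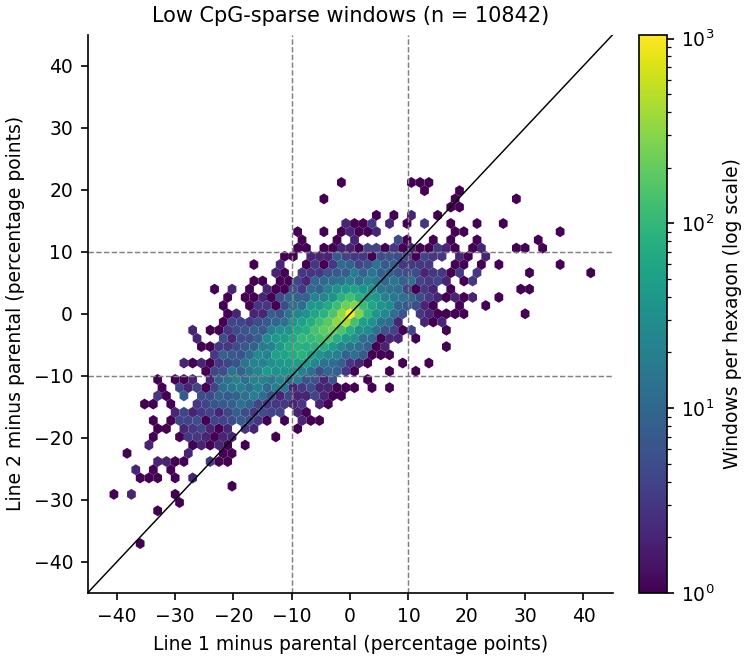
Difference of line 1 from parental (x axis) against that of line 2 from parental (y axis), in percentage points, for the 10842 windows as a map of their density on a log scale; dashed lines mark 10 points and the diagonal marks equal differences. Both differences share the parental library, which by itself draws points along the diagonal; most windows lie near 0, the tail runs to the lower left, and the corners of opposite moves by 10 points are empty.

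Windows were counted as apart at a difference of at least 10 points, with no p because CpGs of a window share reads. Line 1 was higher than parental in 193 windows (1.78%, against 2.27% of all autosomal windows) and lower in 1833 (16.9%, against 21.5%). Line 2 was higher in 93 (0.86%, against 1.46%) and lower in 720 (6.64%, against 10.3%). Line 1 was higher than line 2 in 106 (0.98%, against 1.72%) and lower in 580 (5.35%, against 9.71%). Both lines were higher than parental in 40 windows (0.37%, against 0.878%) and lower in 635 (5.86%, against 9.08%). With line 1 as the library apart from both others, 81 windows were higher (against 0.981% of all) and 454 lower (against 8.6%), and with line 2 apart, 28 were higher (against 0.33%) and 10 lower (against 0.396%). The shares in low sparse windows were below those of all windows in each of these counts, for higher and for lower windows alike. A window with a low parental level has little room to be lower. The limit on the mean also restricts how far both lines can be higher, and it admits some windows with parental levels above it. What set these shares was not tested. Line 2 lay between line 1 and parental or level with either in 6265 windows (57.8%), and 0 windows differed by 10 points in opposite directions.

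Single CpGs were then tested between pairs of libraries (Fisher exact test on read counts, 2-sided). The p-values were adjusted by Benjamini-Hochberg over all 2238764 CpGs with at least 10 reads in each library. A call needed an adjusted p under 0.05 and at least 25 points. The test compares libraries, not conditions. Of the 70588 CpGs in the low sparse windows, line 1 was called higher than parental at 400 (0.57%, against 0.599% of all CpGs) and lower at 2475 (3.51%, against 4.46%). Line 2 was called higher at 35 (0.05%, against 0.0831%) and lower at 357 (0.51%, against 0.713%). Line 1 against line 2 gave 118 higher (0.17%, against 0.184%) and 373 lower (0.53%, against 1.07%). Both lines were called higher than parental at 21 CpGs (0.03%, against 0.0581%) and lower at 304 (0.43%, against 0.6%), the latter in 270 windows. At an unadjusted p under 0.05 the share was 12.8% for line 1 against parental, as over all CpGs, and 7.04% for line 2, against 7.60% over all.

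Few windows were higher in both knockout lines. The largest such difference, ranked by the smaller of the 2 lines, was at chr17:39662001-39663000, with 3.997% in parental cells, 23.3% in line 1 and 23.4% in line 2 over 5 CpGs. 2 of the 5 were called higher in line 1 and none in line 2, where the smallest adjusted p (Fisher exact test) was 0.0513. Next was chr4:2939001-2940000, whose nearest placed start site was that of NOP14-AS1, with 3.71% (19 of 475 reads), 32.1% (117 of 341) and 22.9% (134 of 590). Of its 8 CpGs 5 were called higher in line 1 and 1 in both lines. The CpG at position 2939075 had 0.00% in parental cells, 27.6% in line 1 and 17.6% in line 2, and that called in both was 2939150, with 5.17%, 40.5% and 30.6%. The other 3 windows ranked highest, at chr12:55378001-55379000 (0.00%, 17.9% and 18.0%), chr22:44699001-44700000 (2.44%, 19.4% and 19.3%) and chr6:167554001-167555000 (6.31%, 24.5% and 22.999%), held no called CpG.

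The windows that were lowest against parental in both lines were partly methylated in parental cells, which the limit on the mean and the ranking together require. The first was chr3:156838001-156839000, with 40.6% in the parental library and 4.16% in each knockout line over 7 CpGs at medians of 16, 11 and 10 reads. It held 23 CpGs seen at any coverage, and 2 CpGs were called lower in each line, 1 of them in both. At chr20:60425001-60426000 all 10 CpGs seen were compared, and the level was 41.5% in parental cells, 8.44% in line 1 and 10.1% in line 2; 3 CpGs were called lower in line 1 and 2 of them also in line 2. The CpG at position 60425064 was methylated in 12 of 16 parental reads, 3 of 20 in line 1 and 2 of 25 in line 2 (adjusted p 0.0120 and 0.0042, Fisher exact test). The remaining 3 were chr12:114116001-114117000 (37.6%, 7.69% and 6.62%), chr19:21452001-21453000 (37.5%, 0.00% and 8.04%) and chr12:130886001-130887000 (40.9%, 0.83% and 11.7%), with 1 to 2 CpGs called lower in line 1.

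The knockout lines were furthest apart in windows where line 1 stood alone. Where line 1 was the high library, the limit on the mean and the ranking together kept parental cells low. The window chr19:1773001-1774000 had 4.92% in parental cells, 41.1% in line 1 and 12.2% in line 2 over 9 CpGs, of which 7 were called higher in line 1 than in parental and 5 higher in line 1 than in line 2. Its flank stood at 23.6% in parental cells. The other windows of this kind were chr8:41814001-41815000 (1.31%, 42.6% and 8.74%), chr5:77934001-77935000 (8.53%, 38.6% and 9.35%) and chr19:15408001-15409000 (4.55%, 35.8% and 8.65%). In the chromosome 8 window 6 of 6 CpGs were called higher in line 1 than in parental and 0 higher than in line 2. In the chromosome 5 window no CpG was called. At chr19:15408001-15409000 3 of 6 were called higher in line 1 than in parental and 2 higher than in line 2. At chr22:26171001-26172000 line 1 was instead the low library, with 26.4%, 2.70% and 30.4%. There, 1 CpG was called lower in line 1 than in parental and another lower than in line 2. In 4 of these 5 windows line 1 was thus above both other libraries. Its place above parental cells there follows from the choice of windows and is a description.

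**Figure D5:**
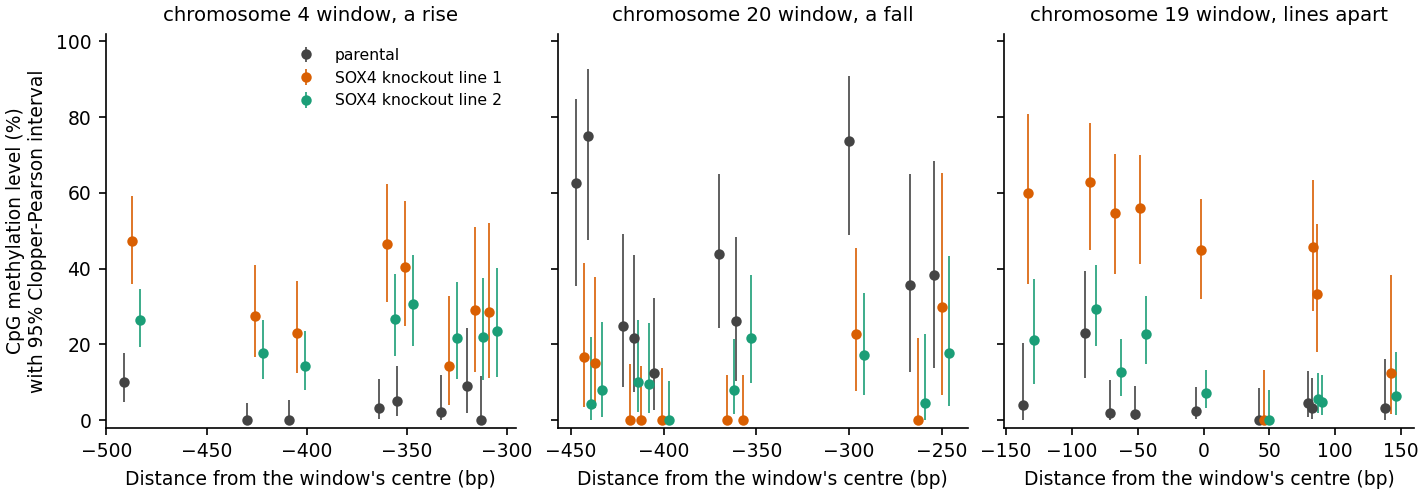
Methylation level of each CpG (y axis, percent, with exact Clopper-Pearson 95% intervals) by distance from the centre of the window (x axis, bp) in 3 named windows, 1 colour per library. In the chromosome 4 window both knockout lines lie above parental at 8 of 8 CpGs, in the chromosome 20 window parental lies above both knockout lines at 10 of 10, and in the chromosome 19 window line 1 lies above both others at 8 of 9 CpGs.

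At the other end, 5 windows with no methylated read carried the most parental reads. They were chr7:25605001-25606000 (0 of 756 parental reads, 550 in line 1 and 1031 in line 2), chr9:706001-707000, chr6:116381001-116382000, chr7:134832001-134833000 and chr19:38423001-38424000. The limit that a count of 0 allows ranged from 0.291% to 1.38% per library, for counting error only. The window at chr9:706001-707000 has its centre 552 bp from the placed start site of KANK1, and chr7:134832001-134833000 holds the start site of TMEM140, whose own level was thus 0.00% in all 3 libraries. Parental surroundings stood at 25.1%, 66.4%, 53.9%, 31.2% and 32.4% in that order, so windows with no methylated read were found in both settings.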

How the data were processed

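Genomic DNA of 3 Hep3B libraries (parental, SOX4-/- line 1 and line 2) was captured with the EPIC probe set and bisulfite sequenced. The authors deposited counts for each strand of each cytosine in a CpG. They gave the read count (coverage), the methylated read count and the methylation level as a fraction of 0 to 1. The files are in GRCh37 (hg19) per the submitters' processing notes. The aligner, caller, filters and removal of duplicates are not given in the sources used here. PCR reads carry no molecular identifiers, so that intervals and floors cover counting error only.

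Reads of the 2 strands were summed per CpG, and methylated reads were taken from the methylated count given by the authors. A CpG was kept at a minimum of 10 reads in each library, and windows of 1000 bp had at least 5 such CpGs. Reads at CpGs totalled 104702738 (parental), 96987706 (line 1) and 133170621 (line 2), with medians of 22, 20 and 27 reads per CpG. CpGs were compared by a 2-sided Fisher exact test with Benjamini-Hochberg adjustment, after the test was tested on simulated data. Window means, flanks and left-out CpGs are given with no test; the sign-flip test planned for the last 2 was dropped, since the choice of windows fixes its direction. The floor of a count of 0 was 3 reads. Intervals are exact (Clopper-Pearson, 95%).

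Named windows are the 5 highest and 5 lowest against parental in both lines, the 5 with the widest gap between the lines, the 5 deepest dips, the 5 lowest levels with the most parental reads first, the 3 longest runs, and 3 on each side of the limit. The windows, lists and rules were chosen with earlier results of these data known. The plan named genes only with a GRCh37 annotation; placing RefSeq (GRCh38.p14) promoter sequences by exact CpG spacing on their own chromosome (at least 4 CpGs, at least 70% of them seen) was added after the data were seen, as were the gene lists' use there and the 3 alternatives that go with it. Of 15412 sequences found once, 99.8% kept the order of the table, and 21 sequences were found once on a chromosome not their own. Alternatives covered read minimum, window rule, weighting, thresholds, distances, thinning and leaving out a line. Tools were numba 0.67.0, scipy 1.17.1, matplotlib 3.10.9, pandas 2.3.3 and numpy 2.4.6 under Python 3.11.15.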

Additional observations from a re-analysis of the deposited data

How the results depend on the processing

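Under 25 alternatives 303 values were recomputed, of which 205 stayed within the spread allowed and 98 moved beyond it, and 0 changed sign. Line 1 lay further from parental than line 2 in all 11 settings that gave both. With each library held below 20%, the mean was 7.38% in parental and 6.16% in line 2, line 1 minus parental was -2.55 points, CpGs called in both lines were 12 higher and 104 lower, and windows 9 and 114. With the mean held below 10%, 6778 windows remained under the rule, at 4.97%, 2.71% and 3.84%, with line 1 minus parental at -2.26 points, 6 and 69 CpGs and 2 and 115 windows. At a minimum of 20 reads, both lines were higher in 16 windows and lower in 331, the flank gap in line 1 was 28.1 points and 4875 windows lay in low surroundings. At a minimum of 5 reads the flank gap was 29.1, 26.0 and 27.2 points. CpGs called in both lines were 3 higher and 144 lower after thinning to equal depth, 6 and 154 at an adjusted p under 0.01, 51 higher at 10 points, and 1 and 52 at 50 points. At 25 points both lines were higher in 0 windows and lower in 16. Methylated surroundings numbered 3721 at a limit of 40% and 1313 at 60%. Leaving out either knockout line, the CpGs called ranged from 35 to 400 higher and from 357 to 2475 lower, the windows from 93 to 193 higher and from 720 to 1833 lower, and the difference from -3.93 to -2.04 points, so line 1 (kept when line 2 is left out) gave the larger counts. The cause of these moves was not tested, other than that stricter rules keep fewer windows, CpGs or reads. No paired analysis was possible because only 1 library was parental. Depth limits single CpGs most, at a minimum of 10 reads.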
